A study of Mus musculus with 4 samples.

Results

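DNA repair genes were followed here across 4 mouse arrays, as a set of 39 genes named for the repair of breaks, crosslinks, mismatches and damaged bases. Members were found by matching the RefSeq accession of each probe to the gene, and 38 of the 39 had a matched probe, out of 33378 genes or transcripts on the array. Atr had none and is not analysed here. A level below is a log2 signal relative to the 75th percentile of its own array, so that a difference of 1 between arrays is 2-fold. Levels of different genes come from different probes and are not compared. All 38 measured members were well above background on all 4 arrays, and all were among the 21216 genes or transcripts tested.

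Cells meet DNA damage with several routes of repair. Base excision repair removes single altered bases, nucleotide excision repair cuts out bulky adducts, and mismatch repair corrects copying errors. Double-strand breaks are rejoined directly by non-homologous end joining or copied from the sister chromatid by homologous recombination, which the Fanconi anaemia proteins draw on to undo crosslinks between strands. Pluripotent cells cycle fast, spend much of the cycle in S phase and are known for active recombination and mismatch repair, while marrow holds dividing progenitors beside cells that have left the cycle.

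The arrays held RNA of E14 embryonic stem (ES) cells of strain 129 (n = 1), of induced pluripotent stem (iPS) lines 7 and 13 (n = 2) and of bone marrow mononuclear cells (BMMNCs, n = 1) of strain C57BL/6. Both iPS lines were made from C57BL/6 BMMNCs of mice with an Oct4-EGFP transgene, which neither of the other samples is labelled to carry. ES and iPS cells were grown on irradiated embryonic fibroblasts with LIF and freed of these feeders on gelatin before RNA was taken. The labels give neither the age of the mice nor the number of animals pooled, and the title names reprogramming of adult bone marrow cells as the subject, so that the iPS lines were set first against their cells of origin and then against ES cells.

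Between 54.6% and 59.0% of probes were well above background on an array, no spot was saturated, and the 75th percentile of signal was 580.4 in BMMNCs and between 1003 and 1070 on the other arrays. Marker genes were set against the labels. All 6 pluripotency markers were above background in ES cells and both lines and rose against BMMNCs, where 1 of 6 was, and all 6 granulocyte, 5 erythroid, 5 B cell and both monocyte markers tested fell, as did 1 of 2 T cell markers. Fibroblast markers were above background for 8 of 8 genes in ES cells and both lines and for 5 of 8 in BMMNCs. Their summed signal, in multiples of the array's 75th percentile, was 477 in ES cells, 557 in line 7, 519 in line 13 and 92.2 in BMMNCs. Most of the BMMNC sum came from Vim, at a level of 6.26 there, while Col3a1, Postn and Dcn were not well above background in BMMNCs. Granulocyte markers ran the other way, with sums of 1058 in BMMNCs and 0.082 to 0.11 elsewhere, and erythroid markers with 1546 against 0.16 to 0.22. These marker sums move with every comparison against BMMNCs below, and their part in the repair genes' differences was not tested. In such mixed samples, fewer cells of a type and less RNA per cell cannot be told apart.

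Compared with BMMNCs, both iPS lines carried higher signals for base excision genes, for mismatch genes around Msh6 and for the Ku subunit Xrcc5, and lower signals for the nucleotide excision genes Xpc and Xpa and the helicase gene Wrn. Of the 38 members, 15 rose, 5 fell and 18 did not pass the test (limma, adjusted p of 0.05). Over all genes tested, 38.3% rose and 37.4% fell. Past the threshold were 52.6% of members and 75.6% of all genes. The share of risen members lay near that of all genes and the share of fallen members below it, a difference that was not tested. The median difference of the members was 0.19 and that of all genes 0.0075. Scaling mattered for the split: 12 rose and 11 fell with each array set to its median, and 17 rose and 9 fell with normexp background correction. Those settings moved the median of all genes to -0.20 and -0.20, and the authors' value table moved it to 0.12.

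**Figure D1:**
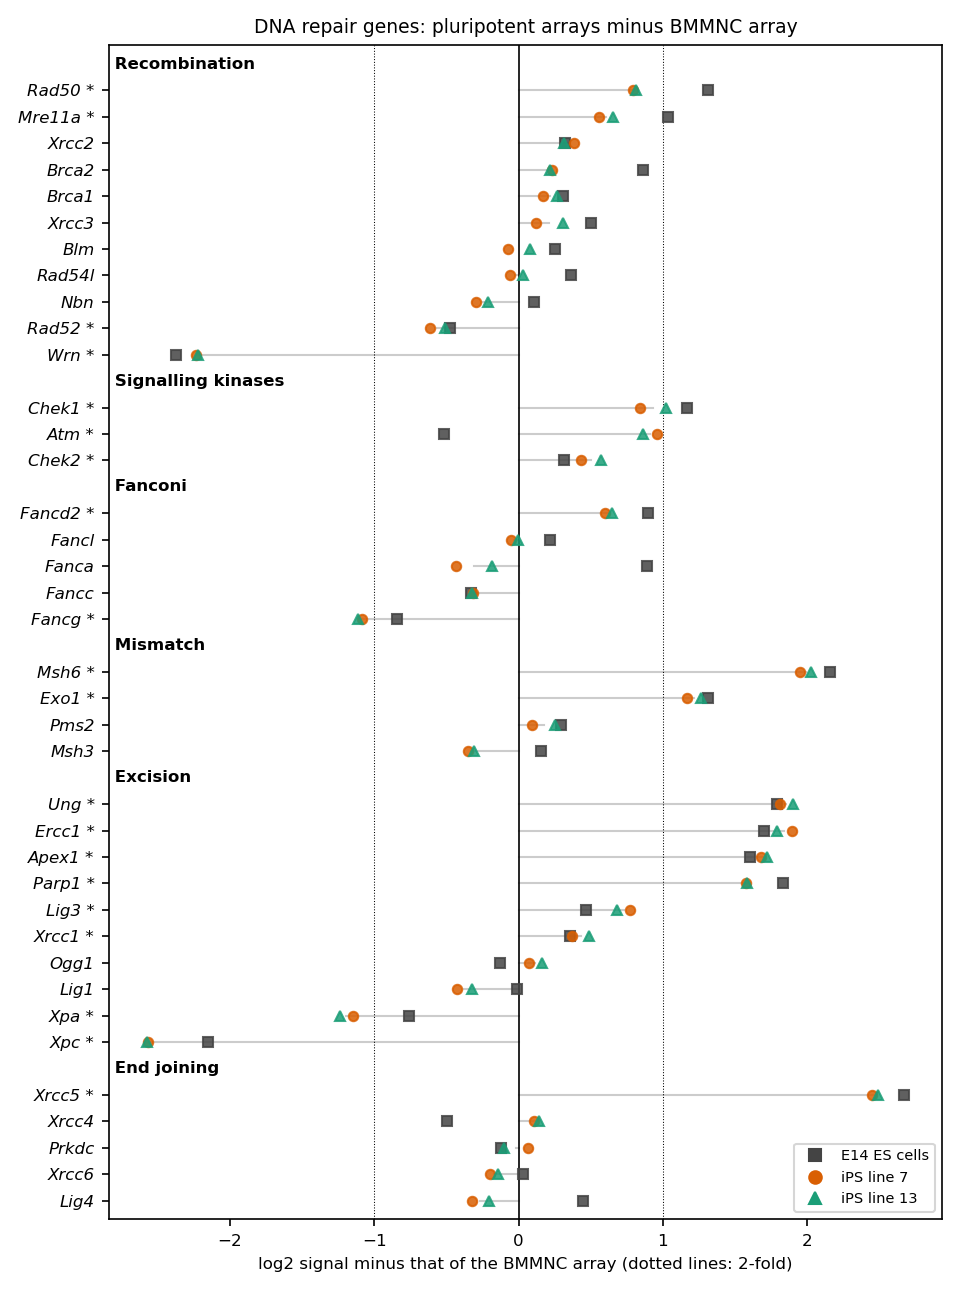
The log2 signal of each DNA repair gene minus that of the BMMNC array, for ES cells (squares), iPS line 7 (circles) and iPS line 13 (triangles), by repair route; grey lines run to the mean of both lines, dotted lines mark 2-fold and an asterisk marks a gene past the limma adjusted p of 0.05. Xrcc5, Msh6, Ung, Ercc1, Apex1, Parp1 and Exo1 lie beyond 2-fold on the right on all 3 arrays, and Xpc and Wrn beyond 2-fold on the left.

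In base excision repair, 5 of 7 members rose, none fell and 2 did not pass, with a median difference of 0.73. Ung, the glycosylase that removes uracil, stood at 4.21 in ES cells, 4.23 in line 7, 4.32 in line 13 and 2.42 in BMMNCs. BMMNCs were the lowest of the 4, and Ung rose by 1.85 (SE 0.10, 3.62-fold, adjusted p = 0.00208). Apex1, the endonuclease that nicks the emptied site, stood at 4.12 in ES cells, 4.19 in line 7, 4.24 in line 13 and 2.51 in BMMNCs and rose by 1.70 (SE 0.095, 3.25-fold, adjusted p = 0.00209). Parp1, which binds strand breaks and builds poly(ADP-ribose) chains there, stood at 4.89 in ES cells, 4.64 in line 7, 4.64 in line 13 and 3.06 in BMMNCs and rose by 1.58 (SE 0.092, 2.99-fold, adjusted p = 0.00223). In all 3 of these genes the ES array lay with the iPS arrays, at least 2-fold above BMMNCs.

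The genes of the sealing step moved less. Lig3, a DNA ligase of single-strand break repair, stood at -1.02 in ES cells, -0.72 in line 7, -0.81 in line 13 and -1.49 in BMMNCs and rose by 0.73 (adjusted p = 0.0124). Its scaffold partner Xrcc1 stood at 3.54 in ES cells, 3.55 in line 7, 3.68 in line 13 and 3.18 in BMMNCs and rose by 0.43 (adjusted p = 0.0461), close to the threshold. Neither passed with dim probes left in or with the ES and iPS arrays taken as 1 group, and Xrcc1 did not pass with median scaling. Lig1, the ligase of DNA replication and long-patch repair, stood at 5.52 in ES cells, 5.10 in line 7, 5.203 in line 13 and 5.53 in BMMNCs, so that BMMNCs and ES cells shared the higher level and the difference of -0.38 did not pass (adjusted p = 0.056). Ogg1, the glycosylase for oxidised guanine, stood at 0.030 in ES cells, 0.23 in line 7, 0.32 in line 13 and 0.16 in BMMNCs, a difference of 0.12 (adjusted p = 0.373) with the BMMNC level between those of ES cells and the lines.

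All 3 nucleotide excision members passed, 1 risen and 2 fallen. Xpc, which senses distorted helices and opens global nucleotide excision repair, stood at 1.47 in ES cells, 1.05 in line 7, 1.05 in line 13 and 3.62 in BMMNCs. The BMMNC array was the highest by over 2-fold against each other array, and Xpc fell by 2.57 (SE 0.092, 5.95-fold, adjusted p = 0.00113), the lowest difference of any member. Its second probe gave -2.18. Xpa, which checks the opened lesion, stood at -0.75 in ES cells, -1.15 in line 7, -1.24 in line 13 and 0.0023 in BMMNCs and fell by 1.19 (SE 0.10, 2.29-fold, adjusted p = 0.00451). Ercc1, a subunit of the nuclease that cuts on the 5′ side, stood at 2.49 in ES cells, 2.68 in line 7, 2.58 in line 13 and 0.79 in BMMNCs and rose by 1.84 (SE 0.11, 3.59-fold, adjusted p = 0.00222). The 3 genes of 1 route therefore lay on opposite sides of BMMNCs: the difference for Ercc1 exceeded that for Xpc by 4.47 in line 7, 4.36 in line 13 and 3.86 in ES cells.

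Of the 4 mismatch members 2 rose and 2 did not pass. Msh6, the subunit of the MutS-alpha complex that contacts base mismatches, stood at 6.38 in ES cells, 6.18 in line 7, 6.26 in line 13 and 4.23 in BMMNCs and rose by 1.99 (SE 0.10, 3.97-fold, adjusted p = 0.00175). Exo1, the exonuclease that removes the strand with the error, stood at 3.40 in ES cells, 3.25 in line 7, 3.35 in line 13 and 2.08 in BMMNCs and rose by 1.22 (SE 0.11, 2.33-fold, adjusted p = 0.00448). ES cells and both lines lay above BMMNCs for both. Msh3, its counterpart in the MutS-beta complex that binds small loops, stood at 1.95 in ES cells, 1.44 in line 7, 1.48 in line 13 and 1.80 in BMMNCs by its brightest probe, a difference of -0.33 (adjusted p = 0.0569). Its other 2 probes gave 0.91 and 0.59, and the mean of the 3 gave 0.39 (adjusted p = 0.0405), so that no direction can be given for Msh3. Pms2, a MutL subunit, stood at 0.78 in ES cells, 0.58 in line 7, 0.75 in line 13 and 0.49 in BMMNCs, a difference of 0.17 (adjusted p = 0.298).

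Among 5 end-joining members Xrcc5 alone passed. Xrcc5 encodes Ku80, which with Ku70 forms the ring that caps broken ends. It stood at 3.67 in ES cells, 3.44 in line 7, 3.48 in line 13 and 0.996 in BMMNCs and rose by 2.47 (SE 0.095, 5.53-fold, adjusted p = 0.00121), the highest difference of any member. Xrcc6, which encodes Ku70, stood at 1.63 in ES cells, 1.40 in line 7, 1.45 in line 13 and 1.59 in BMMNCs, a spread of under 2-fold over all arrays, with a difference of -0.17 (adjusted p = 0.206). The difference from BMMNCs was larger for Xrcc5 than for Xrcc6 by 2.65 in line 7, 2.63 in line 13 and 2.64 in ES cells. Prkdc, the kinase recruited by the Ku ring, stood at -0.57 in ES cells, -0.39 in line 7, -0.56 in line 13 and -0.45 in BMMNCs (difference -0.019, adjusted p = 0.901). The ligase Lig4 stood at 0.30 in ES cells, -0.47 in line 7, -0.35 in line 13 and -0.14 in BMMNCs (difference -0.27, adjusted p = 0.125). Its cofactor Xrcc4 stood at 0.010 in ES cells, 0.61 in line 7, 0.65 in line 13 and 0.51 in BMMNCs (difference 0.12, adjusted p = 0.316). For Lig4 and Xrcc4 the ES array was the one farthest from BMMNCs, in opposite directions.

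Promoter letters were read for all members with a promoter window. RefSeq promoter windows (GRCm38.p6) were held for 31 of the 39 members, not for Rad50, Wrn, Nbn, Xrcc2, Fancd2, Exo1, Prkdc and Xpc. The 250 bases before the start site were searched on both strands, and each motif was counted whether or not it overlapped another. The E-box CACGTG, which reads the same on both strands and is bound by Myc, Usf and related factors, was present in 4 of 31 members (12.9%) and in 6.86% of 27025 genes. All 4 were among the 12 risen members with a window, and it was in 0 of 3 fallen members, in 0 of 15 that did not pass and not in Atr. The E-box share among all risen genes of the array was not counted, so a link between the E-box and a rise was not tested. The 4 genes are shown because 3 of them belong to base excision repair and the fourth is the Ku subunit with the highest difference; Xrcc6, its partner, is shown for contrast. Each stretch is 220 bases before the start site, 5′ to 3′ on the + strand, from chr1:180568671-180568890 (Parp1), chr14:50924729-50924948 (Apex1), chr11:82780889-82781108 (Lig3), chr1:72307201-72307420 (Xrcc5) and chr15:82016149-82016368 (Xrcc6). Capitals mark the E-box in the first 4 and, in Xrcc6, a match to the E2F letters TTTCCCGC on the other strand.
Parp1: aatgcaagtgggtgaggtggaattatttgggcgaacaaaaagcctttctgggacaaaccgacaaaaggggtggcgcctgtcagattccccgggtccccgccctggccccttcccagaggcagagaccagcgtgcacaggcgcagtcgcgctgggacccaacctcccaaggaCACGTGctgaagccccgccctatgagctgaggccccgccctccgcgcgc
Apex1: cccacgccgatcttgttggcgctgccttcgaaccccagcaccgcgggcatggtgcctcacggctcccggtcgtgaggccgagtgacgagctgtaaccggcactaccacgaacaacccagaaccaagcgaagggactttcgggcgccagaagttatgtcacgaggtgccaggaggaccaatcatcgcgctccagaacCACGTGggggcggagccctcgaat
Lig3: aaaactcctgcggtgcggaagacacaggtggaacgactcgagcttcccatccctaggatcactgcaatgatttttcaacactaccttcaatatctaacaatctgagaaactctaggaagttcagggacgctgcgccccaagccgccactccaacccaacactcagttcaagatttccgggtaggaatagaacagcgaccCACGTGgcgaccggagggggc
Xrcc5: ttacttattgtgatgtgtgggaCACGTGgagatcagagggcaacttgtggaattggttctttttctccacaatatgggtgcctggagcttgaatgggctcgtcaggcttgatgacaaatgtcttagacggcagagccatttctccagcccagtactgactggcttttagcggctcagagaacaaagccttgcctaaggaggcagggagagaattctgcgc
Xrcc6: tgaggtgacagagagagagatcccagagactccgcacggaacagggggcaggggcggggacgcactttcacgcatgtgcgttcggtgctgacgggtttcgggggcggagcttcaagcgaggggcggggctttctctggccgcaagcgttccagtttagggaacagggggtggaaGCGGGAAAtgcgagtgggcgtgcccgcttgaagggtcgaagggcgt
The E-box began 49 bases before the start site in Parp1, 24 in Apex1, 21 in Lig3 and 198 in Xrcc5, and the Xrcc6 match began 46 bases before it. Letters of the E2F site, TTTCGCGC, TTTCCCGC, TTTGGCGC or TTTGCCGC, which mark many S phase genes, were found in 5 of 31 members (16.1%) and in 2.16% of all genes. Of the 5, Chek2 rose, Fancg fell, and Brca2, Msh3 and Xrcc6 did not pass, so that members with the match lay on both sides of BMMNCs. CCAAT was found in 16 members (51.6%) against 37.5% of all genes, and the NRF1 palindrome in 2 (Atm and Lig4, 6.45%) against 4.23%. By call, CCAAT was in 7 of 12 risen members, 1 of 3 fallen members and 8 of 15 that did not pass. TTTGAA, the core of the cell cycle homology region, was found in 0 members against 18.3%. A match describes letters in a window and shows no binding.

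Of the 11 recombination members 2 rose, 2 fell and 7 did not pass, with a median difference of 0.21. In the MRN complex, which holds and trims broken ends, the 3 subunits did not share a difference by their brightest probes. Rad50, its coiled-coil subunit, stood at 1.21 in ES cells, 0.69 in line 7, 0.71 in line 13 and -0.11 in BMMNCs and rose by 0.81 (adjusted p = 0.00798). The nuclease Mre11a stood at 2.58 in ES cells, 2.11 in line 7, 2.21 in line 13 and 1.55 in BMMNCs and rose by 0.61 (adjusted p = 0.0194). For both, the ES array was the highest and BMMNCs the lowest. Nbn, the subunit that recruits Atm, stood at 2.18 in ES cells, 1.77 in line 7, 1.86 in line 13 and 2.07 in BMMNCs, a difference of -0.25 (adjusted p = 0.114). The second probes lay closer together, at 0.26 for Mre11a and -0.027 for Nbn. Rad50 did not pass with the ES and iPS arrays taken as 1 group, and Mre11a passed neither there nor with median scaling or without the filter on dim probes.

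The RecQ helicases also parted. Wrn, which is lost in Werner syndrome, stood at -2.36 in ES cells, -2.23 in line 7, -2.21 in line 13 and 0.011 in BMMNCs and fell by 2.23 (SE 0.093, 4.69-fold, adjusted p = 0.00134). Its 3 other probes gave -1.86, -0.34 and 0.36. The second of these was above background on no array and the third on all but the ES array. With the mean of the 4 probes the difference was -1.02 (adjusted p = 0.00688). Blm, lost in Bloom syndrome, stood at 2.40 in ES cells, 2.07 in line 7, 2.23 in line 13 and 2.15 in BMMNCs, a difference of 0.00071 (adjusted p = 0.996).

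No strand-exchange gene passed in the reported setting. Brca1, which promotes end resection and the loading of Brca2, stood at 2.46 in ES cells, 2.32 in line 7, 2.41 in line 13 and 2.15 in BMMNCs (difference 0.22) and Brca2, which loads the recombinase on DNA, at 2.57 in ES cells, 1.94 in line 7, 1.93 in line 13 and 1.71 in BMMNCs (difference 0.23). Rad54l, a translocase that acts in strand exchange, stood at 1.70 in ES cells, 1.28 in line 7, 1.36 in line 13 and 1.34 in BMMNCs (difference -0.015). Of the recombinase paralogues, Xrcc2 stood at -1.50 in ES cells, -1.44 in line 7, -1.51 in line 13 and -1.82 in BMMNCs (difference 0.35) and Xrcc3 at -0.27 in ES cells, -0.65 in line 7, -0.47 in line 13 and -0.77 in BMMNCs (difference 0.21). Adjusted p-values of these 5 lay between 0.057 (Xrcc2) and 0.901 (Rad54l). Of the 9 alternative settings, Brca1 passed as risen in 4 (normexp, quantile normalization, intensity trend and mean of probes). Brca2 passed as risen in 4 (normexp, quantile normalization, authors' table and intensity trend) and Xrcc2 in 3, while Rad54l and Xrcc3 passed in 0. Rad52, an annealing factor, stood at -1.40 in ES cells, -1.54 in line 7, -1.43 in line 13 and -0.92 in BMMNCs and fell by 0.56 (SE 0.11, 1.48-fold, adjusted p = 0.0236). Its second probe gave -1.12, and without the filter on dim probes it did not pass.

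The 3 measured kinases of the damage signal all rose. Chek1, the S and G2 checkpoint kinase downstream of Atr, stood at 0.93 in ES cells, 0.61 in line 7, 0.78 in line 13 and -0.24 in BMMNCs and rose by 0.93 (adjusted p = 0.0119). A second probe gave 1.02. Chek2, its counterpart downstream of Atm, stood at -0.33 in ES cells, -0.22 in line 7, -0.079 in line 13 and -0.65 in BMMNCs and rose by 0.50 (adjusted p = 0.037). Chek2 did not pass with median scaling, with dim probes left in or with the ES and iPS arrays taken as 1 group. Atm, the kinase called by double-strand breaks, stood at -3.75 in ES cells, -2.27 in line 7, -2.37 in line 13 and -3.23 in BMMNCs and rose by 0.91 (adjusted p = 0.00796). Its signals were low for these arrays, where probes well above background went down to between -5.38 and -4.88. For Atm the ES array lay below BMMNCs. The Atm difference was 0.34 with normexp (adjusted p = 0.0152), and with the ES and iPS arrays taken as 1 group it was 0.43 and did not pass (adjusted p = 0.637).

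Of the 5 Fanconi members 1 rose, 1 fell and 3 did not pass. Fancd2, whose monoubiquitination starts crosslink repair, stood at 0.0068 in ES cells, -0.29 in line 7, -0.24 in line 13 and -0.89 in BMMNCs and rose by 0.62 (adjusted p = 0.0147), and did not pass with dim probes left in. Fancl, the ubiquitin ligase for Fancd2, stood at 2.62 in ES cells, 2.36 in line 7, 2.40 in line 13 and 2.41 in BMMNCs (difference -0.028, adjusted p = 0.803). Fancg, of the core complex, stood at -1.94 in ES cells, -2.18 in line 7, -2.21 in line 13 and -1.10 in BMMNCs and fell by 1.099 (SE 0.094, 2.14-fold, adjusted p = 0.0043). A second Fancg probe gave -2.002. Fancc and Fanca, of the core complex too, did not pass. Fancc stood at -0.68 in ES cells, -0.67 in line 7, -0.67 in line 13 and -0.35 in BMMNCs (difference -0.32, adjusted p = 0.0591). Fanca stood at 3.01 in ES cells, 1.68 in line 7, 1.94 in line 13 and 2.12 in BMMNCs (difference -0.31, adjusted p = 0.181).

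The other genes of DNA repair, from a list of 81 of which 71 were tested, held 25 that rose, 20 that fell and 26 that did not pass, and had a median of 0.048. Base excision paralogues were among both ends. Nthl1, a glycosylase for oxidised pyrimidines, rose by 2.37 (SE 0.098, 5.16-fold, adjusted p = 0.00134). Neil2, a glycosylase of the same kind, was not well above background in BMMNCs and was at least 2.49-fold higher in the lines, with a mean of -3.56 against a measured -6.17 (adjusted p = 0.00811). Neil3, its paralogue, stood at -1.85 in ES cells, -3.08 in line 7, -2.77 in line 13 and 1.66 in BMMNCs and fell by 4.58 (SE 0.18, 23.96-fold, adjusted p = 0.00127). The Fanconi translocase Fancm rose by 1.95 (SE 0.094, 3.88-fold, adjusted p = 0.00164). Of 21 cell cycle genes 7 rose, 4 fell and 10 did not pass, with a median of 0.060, beside which the members' median was 0.19.

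Against ES cells, all members but Atm and Fanca lay within 2-fold in both iPS lines, and most stood lower. Atm rose, no member fell, and 37 did not pass; over all genes tested, 1.94% rose and 2.74% fell. At an unadjusted limma p under 0.05 there were 2 higher and 11 lower members. Both lines lay below ES cells for 25 members, above for 12 and on either side for 1. Over genes above background on all arrays, 50.4% had both lines below. The members' median was -0.20 and that of all genes -0.051. The count of fallen members changed with the setting. It was 11 with normexp, 13 among genes above background on all arrays and 16 with an intensity trend, with 2 risen in each, and 0 with the authors' table or with all genes unfiltered. In normexp, the all-arrays filter and the intensity trend 11 genes fell each time: Rad54l, Rad50, Brca2, Nbn, Mre11a, Fanca, Msh3, Lig1, Xpa, Xpc and Lig4. In that order 2402, 2468 and 3336 genes of the array rose and 3187, 3248 and 4242 fell, out of 21216, 14859 and 21216 tested. Strain, cell origin and reporter separate the lines from ES cells and cannot be told apart here.

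**Figure D2:**
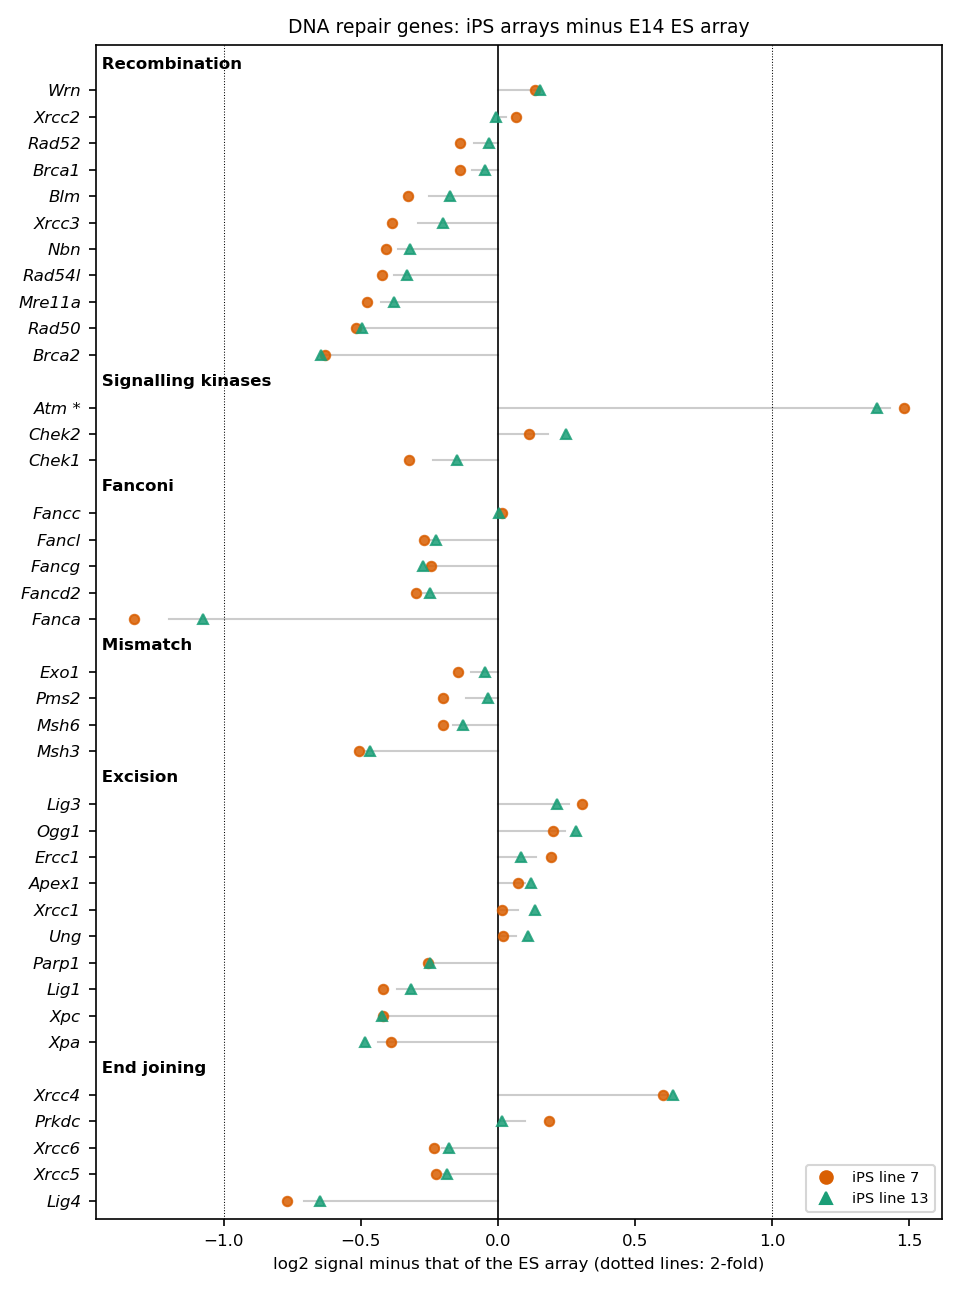
The log2 signal of each DNA repair gene minus that of the ES array, for iPS line 7 (circles) and iPS line 13 (triangles), by repair route; grey lines run to the mean of both lines, dotted lines mark 2-fold and the asterisk marks Atm, the gene past the limma adjusted p of 0.05. Most points lie left of 0 and within 2-fold of it, with Atm on the right and Fanca on the left beyond that.

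Atm rose by 1.43 against ES cells (SE 0.11, 2.7-fold, adjusted p = 0.0451), from -3.75 to -2.27 in line 7 and -2.37 in line 13. The smallest adjusted p of any gene in this comparison was 0.0425. The difference was 0.91 with normexp (adjusted p = 0.00177), and Atm did not pass with the authors' table (adjusted p = 0.0559) or with dim probes left in (adjusted p = 0.169). Atm was read by 1 matched probe. Fanca was 2-fold apart in both lines in the other direction, at 3.01 in ES cells against 1.68 and 1.94, a difference of -1.20 (SE 0.16, adjusted p = 0.0677). Its second probe, above background on the iPS arrays alone, was at least 2.02-fold higher in the lines than in ES cells and at least 1.77-fold higher than in BMMNCs. The mean of both probes turned the difference to 0.39 (adjusted p = 0.279), so that Fanca has no settled direction.

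Several break repair genes stood on the lower side. Brca2 differed by -0.64 (SE 0.093, adjusted p = 0.0735) and its second probe by -0.66. Rad50, Mre11a and Nbn, the MRN subunits, differed by -0.51, -0.43 and -0.36, so that all 3 stood lower in both lines. Against BMMNCs they had parted by their brightest probes. The 3 probes of Msh3 gave -0.49, -0.51 and -0.55 here, in 1 direction, and none of these genes passed. Xrcc4 was the highest after Atm, at 0.62 (SE 0.095, adjusted p = 0.0768), with 0.46 from its second probe, while its ligase Lig4 differed by -0.71 (adjusted p = 0.0798), with -0.61 from its second probe. The genes with the highest differences from BMMNCs lay near the ES level: Xrcc5 at -0.20, Msh6 at -0.16, Ung at 0.066, Ercc1 at 0.14 and Apex1 at 0.098, with adjusted p between 0.268 and 0.712.

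Lig4, Fanca and Wrn lie on chromosome 8, where 601 genes with signal above background on the ES and iPS arrays had a median of -0.39 against ES cells, while medians of the other chromosomes lay between -0.049 and 0.019. Less that median, Lig4 differed by -0.32, Fanca by -0.81 and Wrn by 0.53. The Wrn probe that was dim in ES cells was at least 2.09-fold higher in the lines than there. Without these 3 the median of the remaining 35 members was -0.20. Among the other repair genes none of 71 passed in limma's test against ES cells, with 6 higher and 15 lower at an unadjusted p under 0.05 and a median of -0.15. Of 21 cell cycle genes 20 were lower in the lines, with a median of -0.24 and none past the threshold (7 lower and 0 higher at an unadjusted p under 0.05). Of the 6 pluripotency markers 5 were lower in the lines, with a median of -0.33, and Zfp42, also on chromosome 8, fell by 3.69 (SE 0.16, 12.9-fold, adjusted p = 0.0425). Their summed signal was 567 on the ES array against 448 and 454 on those of lines 7 and 13. Most cell cycle genes and 5 of 6 pluripotency markers thus stood lower beside the repair genes, and their part was not tested.

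ES cells, compared with BMMNCs as single arrays with no replicate check, had 10 members at least 2-fold higher (28.7% of all genes tested) and 2 at least 2-fold lower (26.5%). The 10 were Rad50, Mre11a, Chek1, Msh6, Exo1, Parp1, Ung, Apex1, Ercc1 and Xrcc5, and the 2 were Wrn and Xpc. This comparison shares its BMMNC array with that of the iPS lines. All 3 arrays of ES and iPS cells lay at least 2-fold above BMMNCs for 7 members, Msh6, Exo1, Parp1, Ung, Apex1, Ercc1 and Xrcc5, and at least 2-fold below for Wrn and Xpc. The same held for 23.0% and 23.5% of all genes. ES values came out beyond those of the lines for Xrcc5 (2.67), Msh6 (2.16) and Parp1 (1.83), and short of them for Ung (1.79), Ercc1 (1.70) and Apex1 (1.603).

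The iPS lines were close to each other. No member was 2-fold apart between lines 7 and 13, against 2.44% of all genes, and the largest difference was 0.25, for Fanca. Such differences were rare in genes above background on all arrays, as all measured members were. Of those 14859 genes, 8 were at least 2-fold higher in line 7 and 22 in line 13, so that the members did not stand out. The median size of the difference was 0.090 for members and 0.083 for genes above background on all arrays. Line 13 was the higher for 28 members and line 7 for 10. Among the 14859 genes above background on all arrays, line 13 was the higher for 8964 and line 7 for 5895. The median of line 7 minus line 13 was -0.051 for members and -0.029 for all genes. These differences are the only replicate error behind the tests above, and Fanca, Xrcc3 and Chek1 had the largest.

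Second and further probes gave another look at the same genes. The 38 members had 59 probes, and 18 had more than 1. Of 21 further probes, 18 were well above background on all arrays, and 13 of these gave a difference from BMMNCs of the same sign as the brightest probe. For members past the threshold, 8 of 10 further probes were above background on all arrays and 8 of these 8 had the same sign. The 10 belong to Chek1, Chek2, Fancg, Lig3, Mre11a, Rad52, Wrn and Xpc. Xrcc5, Msh6, Ung, Ercc1, Apex1, Parp1, Exo1, Xpa, Rad50, Atm, Fancd2 and Xrcc1 had 1 probe each, so no further probe bears on them. Of another sign among the 18 were probes of Brca2 (-0.14), Msh3 (0.91 and 0.59), Ogg1 (-0.0057) and Xrcc2 (-0.066). The remaining 3 were dim on at least 1 array: the Fanca probe, at least 1.77-fold higher in the lines than in BMMNCs, and the Wrn probes at -0.34 (dim on all arrays) and 0.36 (dim in ES cells). Brca1 and Xrcc4 did not pass by their brightest probes, while their dimmer probes gave 0.91 and 0.84.

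**Figure D3:**
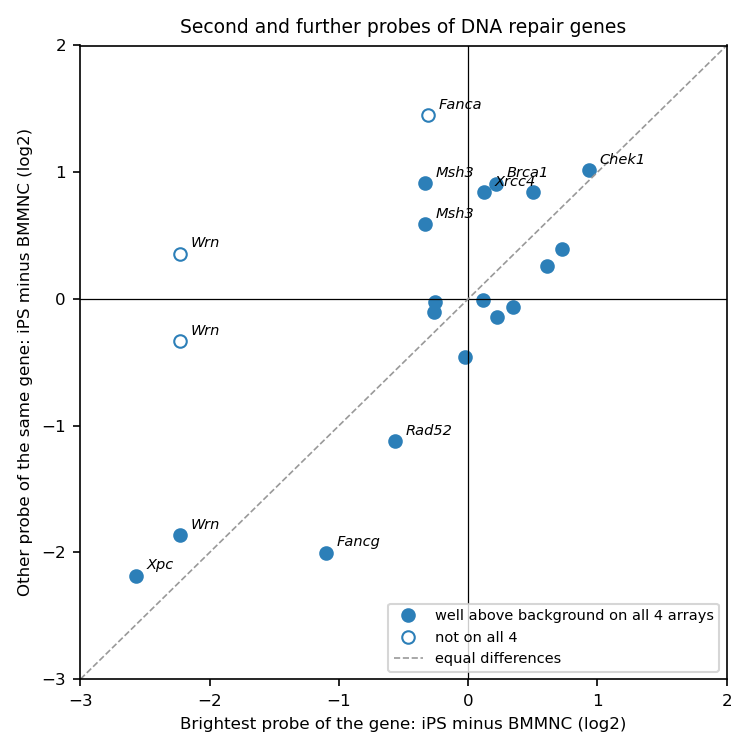
The iPS minus BMMNC difference (log2) of each further probe, on the vertical axis, against that of the brightest probe of the same DNA repair gene, on the horizontal axis; filled circles are further probes well above background on all 4 arrays, open circles are those dim on at least 1, and the dashed line marks equal differences. Probes of Xpc, Fancg, Rad52 and Chek1 lie on the same side of 0 on both axes, and those of Msh3 on opposite sides.

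Among the 20 members past the threshold against BMMNCs, 12 passed in each of 9 alternative settings tried. These were Apex1, Chek1, Ercc1, Exo1, Msh6, Parp1, Ung and Xrcc5, which rose, and Fancg, Wrn, Xpa and Xpc, which fell. Their differences ranged over settings from 2.26 to 2.58 for Xrcc5 and from -2.78 to -2.38 for Xpc. The ranges were wider for Wrn, from -2.44 to -1.02, and Fancg, from -1.55 to -0.97. The settings with no filter, the all-arrays filter and the intensity trend keep the reported differences and change the test alone. The share of all genes that passed in all settings was not counted, so the 12 cannot be set against it. The other 8 of the 20 passed in 6 to 8 of the 9 settings. Some members not past in the reported setting passed elsewhere, as risen for Brca1, Brca2 and Xrcc2 (above). Fancc, Lig1, Lig4 and Msh3 passed as fallen with normexp, median scaling, the all-arrays filter and the intensity trend. Nbn fell with all of these but normexp, Fanca with the all-arrays filter and intensity trend, and Xrcc6 with median scaling. Fancc fell with quantile normalization too, and Msh3 and Xrcc4 rose with the mean of probes.

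**Figure D4:**
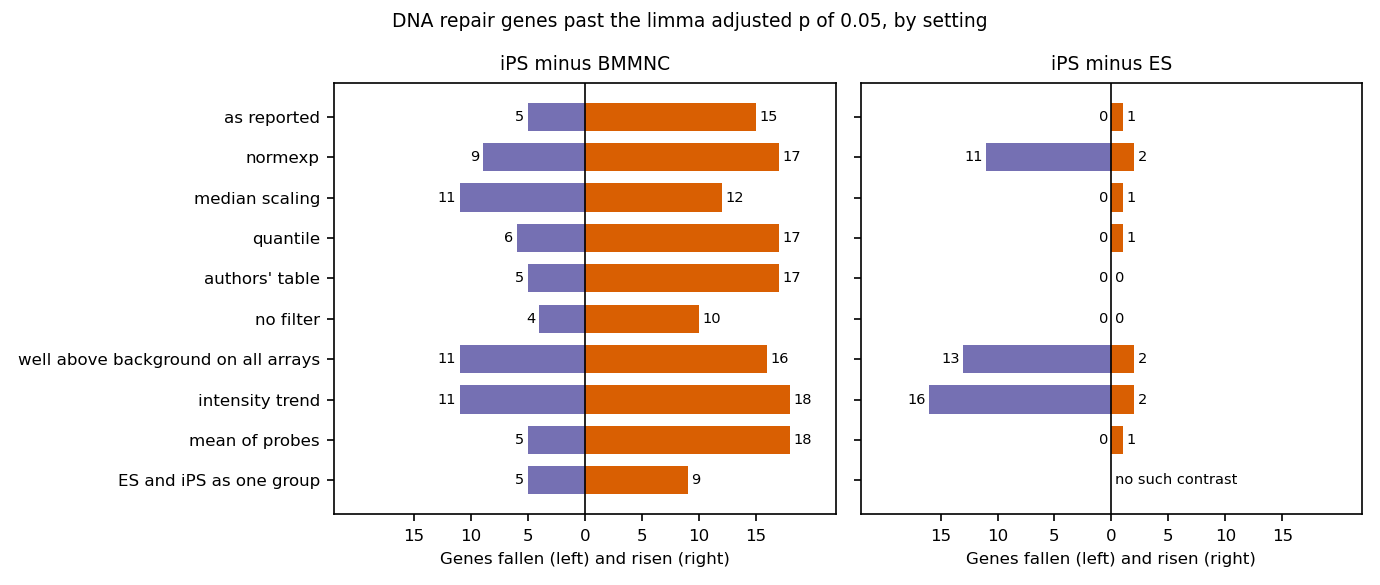
The number of DNA repair genes risen (orange, to the right) and fallen (purple, to the left) past the limma adjusted p of 0.05 under each setting, for iPS lines against BMMNCs on the left and against ES cells on the right. Risen genes outnumber fallen genes against BMMNCs in all settings, while against ES cells the fallen genes go from 0 to 11, 13 or 16 with normexp, the all-arrays filter or the intensity trend.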

How the data were processed

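Total RNA of 4 samples was labelled with Cy3 and read on 4 single-colour Agilent arrays of 1 slide and 1 scan time, per the labels' protocols and the file headers. The authors deposited an intensity per spot, made with Agilent Feature Extraction 9.5 per the submitters' processing notes (9.5.1.1 per the file headers), as a processed signal that is background-subtracted and spatially detrended. Their value table is also a linear intensity, the processed signal times 1 factor per array. It is not centred by gene. Its columns have a median of 139.9 for ES cells, 135.9 for line 7, 133.6 for line 13 and 106.2 for the BMMNC array, and the origin of the factors stays unknown.

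Control and outlier spots were left out, spots of a probe averaged (41160 of 41174 probes kept) and log2 signals taken relative to each array's 75th percentile. Accessions were matched to RefSeq (GRCm38.p6), which named 22948 probes. A gene took its brightest probe by mean signal. The 21216 genes or transcripts well above background on at least 1 array (a share of at least 0.5 of a probe's spots) were tested. limma 3.58.1 in R 4.3.3 was fitted with a mean for ES, iPS and BMMNC arrays. Lines 7 and 13 gave the 1 residual degree of freedom, beside a prior of 1.81 degrees of freedom and an SD of 0.094 (log2). The single ES and BMMNC arrays are assumed to scatter as the lines do. Benjamini-Hochberg adjustment ran over all genes (threshold 0.05). The labels name no separate cultures beyond the line numbers. A p-value therefore sets a difference only against the scatter between lines 7 and 13, combined with the prior. That scatter may be technical, and precision is limited by the number of arrays. The script was tested on simulated data. "At least N-fold" compares the mean of the lines with the higher of the dim array's own signal and its lowest signal well above background.

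Members and gene lists were chosen with earlier results of these data known. All members are named with their values. Full statistics are given for the 5 highest and 5 lowest past the threshold and for members 2-fold apart in both lines; of the other repair genes, for the 3 highest and 3 lowest, some of which are not reported here. Probes of another sign are named. Alternatives were normexp (offset 50, on median pixel signals, since the mean is not analysed here), scaling to the array median, quantile normalization, the authors' table, no filter, a filter on all arrays, an intensity trend, the mean of probes, ES and iPS arrays as 1 group, and leaving out either line.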

Additional observations from a re-analysis of the deposited data

How the results depend on the processing

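Against BMMNCs, the 15 risen and 5 fallen members became 9 and 5 with ES and iPS arrays as 1 group. Fallen members numbered 9 with normexp, 11 with median scaling, 11 above background on all arrays and 11 with an intensity trend. Of the 20 members past the threshold, 12 passed in all 9 settings with a test, a share not counted over all genes. Against ES cells the 1 risen and 0 fallen members became 2 and 11 with normexp, 2 and 13 above background on all arrays, 2 and 16 with an intensity trend, and 0 risen with the authors' table or without the filter. The median difference of members from BMMNCs, 0.19, was -0.016 with median scaling, 0.30 with the authors' table and 0.30 with the mean of probes; leaving out 1 line gave 0.11 to 0.24. That from ES cells, -0.20, was -0.12 with median scaling, and -0.23 to -0.16 without 1 line. That of ES cells from BMMNCs, 0.32, was 0.29 with normexp, 0.028 with median scaling, 0.31 with quantile normalization, 0.40 with the authors' table and 0.36 with the mean of probes, and median scaling put 4 members at least 2-fold lower. That of line 7 from line 13, -0.051, was -0.053, -0.064, -0.023 and -0.024 with normexp, median scaling, quantile normalization and the authors' table. Apart from scaling, the cause was not tested.

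Members that turned sign did not pass in the reported setting. Against BMMNCs, Rad54l was 0.051 with normexp, 0.063 with quantile normalization, 0.091 with the authors' table and 0.11 with ES and iPS as 1 group, and Fancl 0.012, 0.043, 0.080 and 0.054 in that order. With median scaling Blm was -0.21, Pms2 -0.035, Ogg1 -0.091 and Xrcc4 -0.084. Xrcc4 was -0.082 and Fanca 0.092 with ES and iPS as 1 group, Prkdc was 0.092 with the authors' table, and with the mean of probes Fanca was 0.57 and Msh3 0.39. Against ES cells the mean of probes gave -0.30 for Xrcc2, -0.090 for Chek2 and 0.39 for Fanca. Leaving out 1 line leaves no residual degree of freedom, so those are values with no test. No paired analysis was possible because the line numbers occur in 1 group only.

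The limits are those of 4 arrays. Each of ES cells and BMMNCs is 1 array, strain and origin go with the groups, feeder and blood markers move with them, and low signals such as that of Atm depend on the background correction.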
